A study of Mus musculus with 14 samples.

Results

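The genes described here encode 10 RNA-binding proteins of the mouse germ line: Ddx4, Dazl, Dnd1, Nanos1, Nanos2, Nanos3, Lin28a, Lin28b, Elavl2 and Ythdc2. They were taken by name, with earlier results of these data known. All 10 have a row among the 24340 gene symbols of each library. All 10 passed the filter for tested genes, 1 RPKM or more in 2 or more libraries, as did 14772 genes in all. RPKM is the number of reads scaled to transcript length and to the size of the library. The study sequenced mRNA of male germ cells from testes of C57BL/6 mice in 14 libraries, 2 for each of 7 groups. The P7 DKO and P3 DKO groups were Vasa-Cre; Jmjd1a-/-; Jmjd1b-/- mice at postnatal day 7 and day 3. The P3 Jmjd1aKO group was Vasa-Cre; Jmjd1a-/-; Jmjd1b-/+, and the P3 Jmjd1bKO group was Vasa-Cre; Jmjd1a-/+; Jmjd1b-/-. The P7 Ctrl and P3 Ctrl groups were Vasa-Cre; Jmjd1a-/+; Jmjd1b-/+, so the controls also carried the Cre and lacked 1 copy of each gene. The P3 WT group was labelled wild type. Vasa-Cre is expressed from the promoter of Ddx4 itself, which is active in the germ line. Jmjd1a and Jmjd1b, listed in the files as Kdm3a and Kdm3b, encode histone H3K9 demethylases.

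Proteins of this kind decide which germ cell transcripts are stored, translated or destroyed. LIN28A and LIN28B bind the precursors of the let-7 microRNAs and stop them from maturing, and LIN28A marks undifferentiated spermatogonia. NANOS proteins bring mRNAs to the CCR4-NOT complex, which removes the poly(A) tail. NANOS2 keeps spermatogonial stem cells in the stem state, NANOS3 is present in undifferentiated spermatogonia, and DND1 is the partner through which NANOS2 is brought to its targets. DAZL promotes translation and is needed for germ cells to enter differentiation and meiosis. DDX4, the mouse VASA, is an RNA helicase of the nuage, ELAVL2 is a neuronal-type ELAV protein that is also made in germ cells, and YTHDC2 acts with MEIOC when germ cells commit to meiosis.

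The LIN28 proteins recognise a GGAG motif in the loop region of let-7 precursors. The precursor of let-7g is shown to make that contact visible, with its 1 GGAG in capitals, followed by the mature microRNA with its seed (bases 2 to 8) in capitals. Both are RefSeq sequences on GRCm38.p6, from chr9:106178840-106178927 on the plus strand. The libraries were made for mRNA and give no level of mature let-7.
let-7g hairpin: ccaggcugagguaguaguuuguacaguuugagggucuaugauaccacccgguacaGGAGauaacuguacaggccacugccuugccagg
mmu-let-7g-5p: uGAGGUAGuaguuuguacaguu

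RefSeq promoter windows on GRCm38.p6 were matched for 8 of the 10 genes, and the 250 bases before each start site were examined. The stretches printed are those before Lin28a and Nanos2, which fell most in P7 DKO, and Dazl, the 1 that passed the test as higher. They are shortened to the bases outside the annotated gene, 5′ to 3′ on the strand of the gene and with each CpG in capitals. They lie at chr4:134018842-134019066 (minus strand, Lin28a), chr7:18987274-18987399 (plus strand, Nanos2) and chr17:50293637-50293870 (minus strand, Dazl).
Lin28a: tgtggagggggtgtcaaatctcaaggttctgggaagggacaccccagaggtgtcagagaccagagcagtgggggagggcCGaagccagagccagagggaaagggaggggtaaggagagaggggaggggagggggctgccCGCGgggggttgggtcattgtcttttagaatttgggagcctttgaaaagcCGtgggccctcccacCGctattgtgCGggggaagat
Nanos2: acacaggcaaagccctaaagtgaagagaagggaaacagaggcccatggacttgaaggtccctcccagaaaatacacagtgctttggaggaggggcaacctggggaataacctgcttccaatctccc
Dazl: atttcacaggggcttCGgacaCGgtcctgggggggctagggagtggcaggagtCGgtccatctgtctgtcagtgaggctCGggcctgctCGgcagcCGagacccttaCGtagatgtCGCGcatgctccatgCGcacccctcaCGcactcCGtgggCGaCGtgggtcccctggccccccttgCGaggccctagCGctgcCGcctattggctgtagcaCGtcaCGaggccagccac
Over its full 250 bases the window of Nanos2 held 0 CpG, that of Lin28a 7 and that of Dazl 20. Ddx4 had 31, Nanos1 25, Lin28b 6 and Nanos3 3, and the 6 windows of Elavl2 had 10 to 21. The median of 32851 windows of all genes was 6. The E-box CACGTG, read alike on both strands, was present in the windows of Ddx4 and Lin28b and in 6.02% of all windows. GCGGGA or its reverse complement, the core of an E2F site, was present in the window of Ddx4, in 2 of the overlapping windows of Elavl2 and in 16.9% of all windows. The other windows held neither motif, which says nothing about binding.

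The libraries held an estimated 23.8 M to 27.5 M fragments at P7 and 15.0 M to 56.2 M at P3, where the P3 WT libraries were the shallowest (15.0 M to 16.4 M). P3 DKO had 51.2 M to 56.2 M fragments and P3 Ctrl 44.1 M to 48.6 M. Depth therefore did not overlap between the ages in DKO or in control cells, nor between P3 Ctrl and P3 DKO or P3 WT. Its part in those comparisons was not tested. The labels do not say that cells were sorted or that replicates came from separate animals, so the p-values may measure technical spread. All 7 germ cell markers (Ddx4, Dazl, Sall4, Zbtb16, Mael, Tdrd1 and Piwil2) were above 0 in every library, with sums of 1091 to 1581 RPKM. Kdm3a had 8.97 and 7.59 RPKM in P7 DKO, against 27.2 and 27.1 RPKM in P7 Ctrl, and Kdm3b had 6.49 and 6.73 RPKM in P7 DKO, against 17.3 and 16.1 RPKM in P7 Ctrl. Kdm3a was also lower in P3 DKO and P3 Jmjd1aKO than in P3 Ctrl, and Kdm3b passed the test in P3 DKO but not in P3 Jmjd1bKO, where it had 4.72 and 7.51 RPKM against 10.2 and 13.5 RPKM in P3 Ctrl. The sum of 12 Sertoli markers was 774 RPKM in replicate 2 of the P3 Jmjd1aKO group and 957 RPKM in that of the P3 Jmjd1bKO group, against 39.4 to 207 RPKM in the other 12 libraries. No Sertoli marker was at 0 in any library.

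Averaged over the 14 libraries, Dazl had the highest level of the 10 genes, 422 RPKM, followed by Ddx4 with 236 RPKM, Dnd1 with 74.0 RPKM and Lin28a with 68.2 RPKM. Elavl2 averaged 22.8 RPKM and Nanos3 15.5 RPKM. Nanos1 averaged 9.73 RPKM, Lin28b 8.43 RPKM, Ythdc2 5.44 RPKM and Nanos2 4.18 RPKM. RPKM is a level per transcript length, so these can be set side by side, but the order was not the same in every group. Lin28a averaged more than Dnd1 in 4 of the 7 groups, and Nanos2 had 11.4 RPKM in P7 Ctrl, above Lin28b with 8.48 RPKM and Ythdc2 with 4.51 RPKM there. The genes varied across the groups to unequal degrees. The range of the 7 group means on the log2(RPKM + 1) scale was 2.84 for Nanos2, 2.69 for Lin28a and 1.87 for Nanos3, and 0.59 to 0.90 for the other 7 genes.

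The order of the group means differed from gene to gene. For Lin28a it was, from the highest, P3 WT, P3 Jmjd1bKO, P7 Ctrl, P3 Ctrl, P3 Jmjd1aKO, P3 DKO and P7 DKO, and no neighbouring groups overlapped in their libraries. For Nanos2 it was P7 Ctrl, P3 WT, P3 Jmjd1aKO, P3 Ctrl, P3 Jmjd1bKO, P3 DKO and P7 DKO, and P7 Ctrl alone stood apart from its neighbour. For Nanos3 it was P7 Ctrl, P3 Jmjd1aKO, P3 WT, P7 DKO, P3 Jmjd1bKO, P3 Ctrl and P3 DKO, where the groups from P3 WT down to P3 Ctrl overlapped one after the other. Dazl was highest in P7 DKO, followed without overlap by P3 WT, and the other 5 groups overlapped one after the other down to P3 Jmjd1aKO (299 to 351 RPKM). Ddx4 was highest in P3 WT (301.4 to 307 RPKM) and lowest in P7 DKO, each apart from its neighbour. Dnd1 was highest in P7 Ctrl and P7 DKO, which overlapped, and lowest in P3 Jmjd1aKO (59.9 to 62.0 RPKM) and P3 DKO (57.7 to 62.9 RPKM), which overlapped too. Nanos1 was highest in P7 DKO and then P7 Ctrl, each apart from the next group, and lowest in P3 DKO and P3 Jmjd1aKO, which overlapped. Elavl2 was highest in P7 Ctrl, then P3 WT (27.9 to 28.1 RPKM) and then P3 DKO, each apart from the next, and lowest in P3 Jmjd1bKO (16.6 to 16.9 RPKM). Lin28b was highest in P7 DKO, which overlapped with P3 WT (10.1 to 10.5 RPKM), and lowest in P3 Jmjd1bKO (5.57 to 7.19 RPKM). Ythdc2 was highest in P3 WT (6.70 to 7.34 RPKM), which overlapped with P7 DKO, and lowest in P3 Jmjd1bKO (3.70 to 4.50 RPKM).

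**Figure D1:**
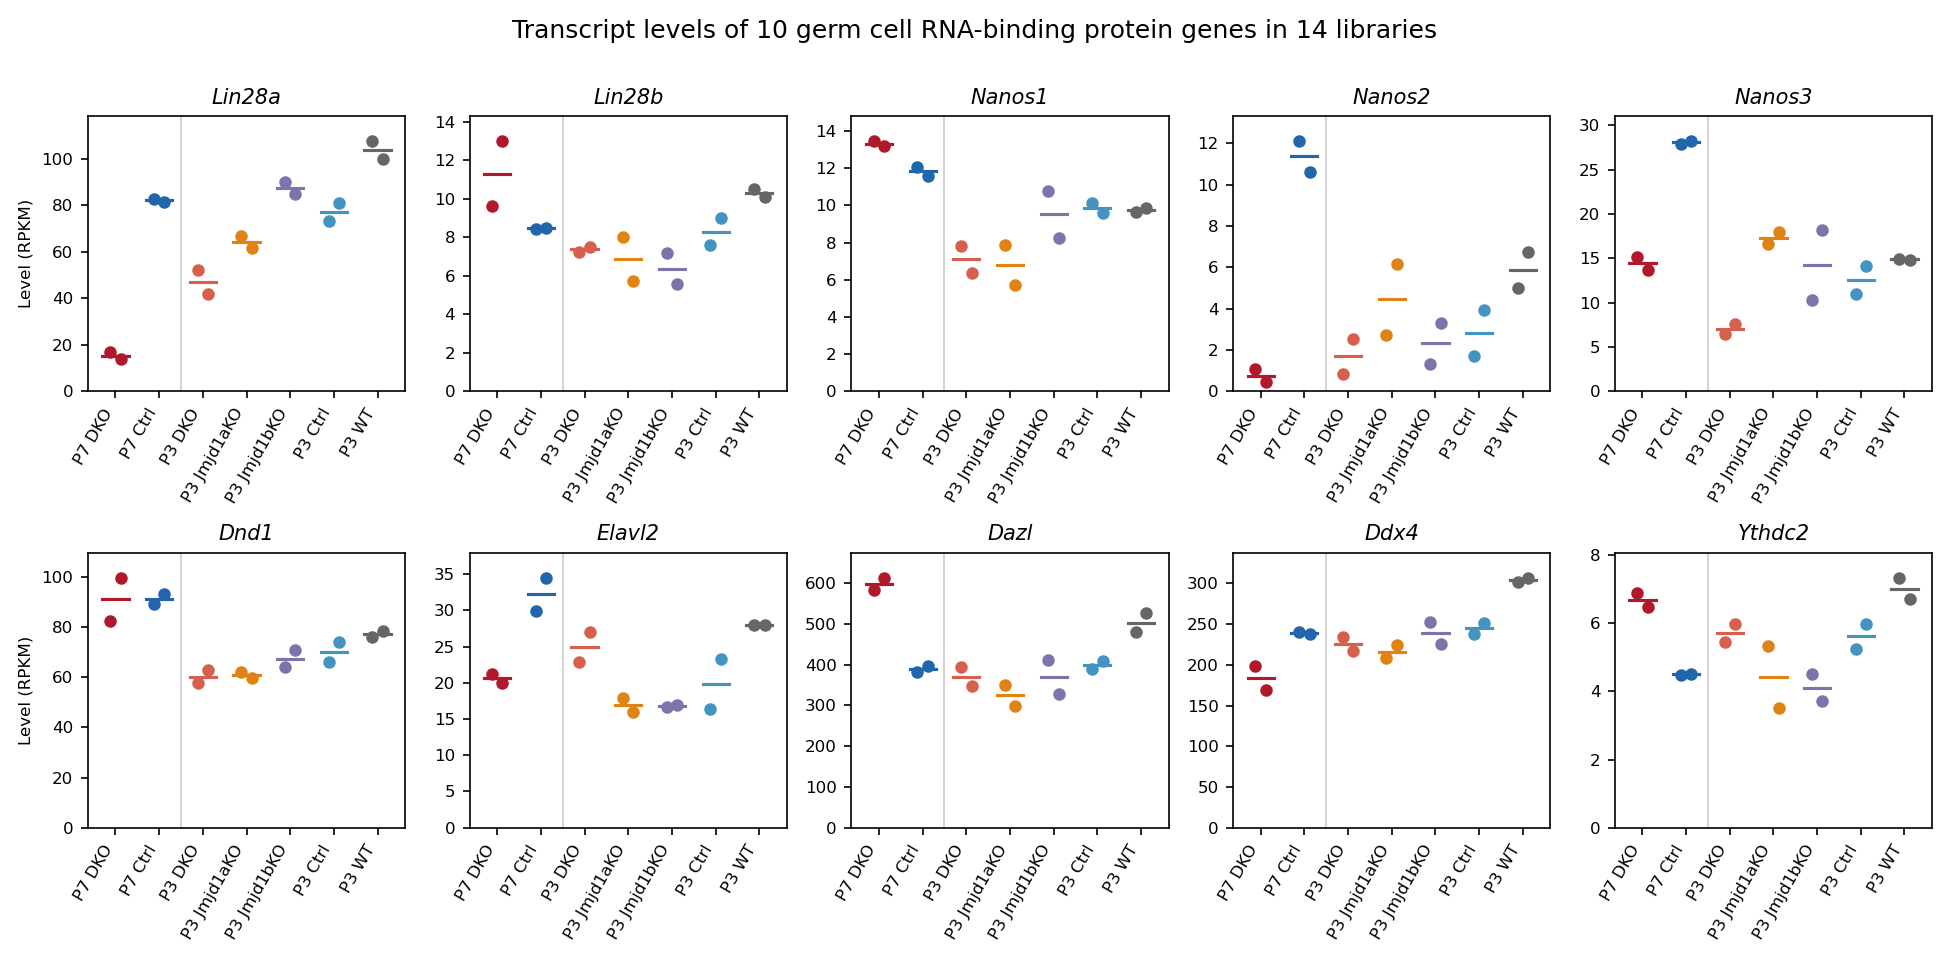
Levels in RPKM (vertical axis, from 0) of the 10 genes in the 7 groups. Each point is 1 library and each bar the mean of 2. Lin28a (13.8 to 16.8 RPKM) lies lowest in P7 DKO, and Dazl (582 to 613 RPKM) lies highest there. Nanos2 has its lowest mean in P7 DKO (0.438 to 1.07 RPKM), with overlap by P3 DKO replicate 1 (0.847 RPKM).

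At day 7, joint loss of the demethylases went with lower Lin28a, Nanos2, Nanos3, Elavl2 and Ddx4 and with higher Dazl. In all, 6 of the 10 genes passed the test in P7 DKO against P7 Ctrl, 1 higher and 5 lower. Of all genes tested, 33.5% passed, 17.4% higher and 16.1% lower, so a call was common in this comparison. The test was limma on log2(RPKM + 1) over all genes, and changes are given on that scale, which understates the change of a low gene. RNA was measured in bulk, so fewer cells of a type and less RNA per cell cannot be told apart.

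Lin28a, on chromosome 4 (134003330 to 134018841, minus strand), had 16.8 and 13.8 RPKM in P7 DKO, against 82.8 and 81.5 RPKM in P7 Ctrl. The P7 DKO libraries lay far below both P7 Ctrl libraries. The mean was 15.3 ± 2.11 RPKM in P7 DKO and 82.2 ± 0.935 RPKM in P7 Ctrl (SD, n = 2 each). The log2 change was -2.36 ± 0.12 (SE, adjusted p = 6.02e-06), which is 0.195 times the control in RPKM + 1. Lin28b, its paralogue on chromosome 10 (45376620 to 45486395, minus strand), had 9.64 and 12.996 RPKM in P7 DKO, against 8.46 and 8.51 RPKM in P7 Ctrl. Its change of 0.36 ± 0.18 did not pass (adjusted p = 0.160, 95% interval -0.05 to 0.78). The Lin28a level was 1.74 and 1.06 times the Lin28b level in the P7 DKO libraries, against 9.80 and 9.58 times in the P7 Ctrl libraries. In the 10 P3 libraries that ratio lay between 5.59 and 15.3, lowest in P3 DKO. Lin28a was closest in level to Lin28b in P7 DKO and several times the more abundant in every other group. Gm13061, annotated on the opposite strand, overlaps 695 bases of Lin28a, and whether strand was used in counting is not given in the sources used here, so reads of the 2 genes cannot be told apart there.

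**Figure D2:**
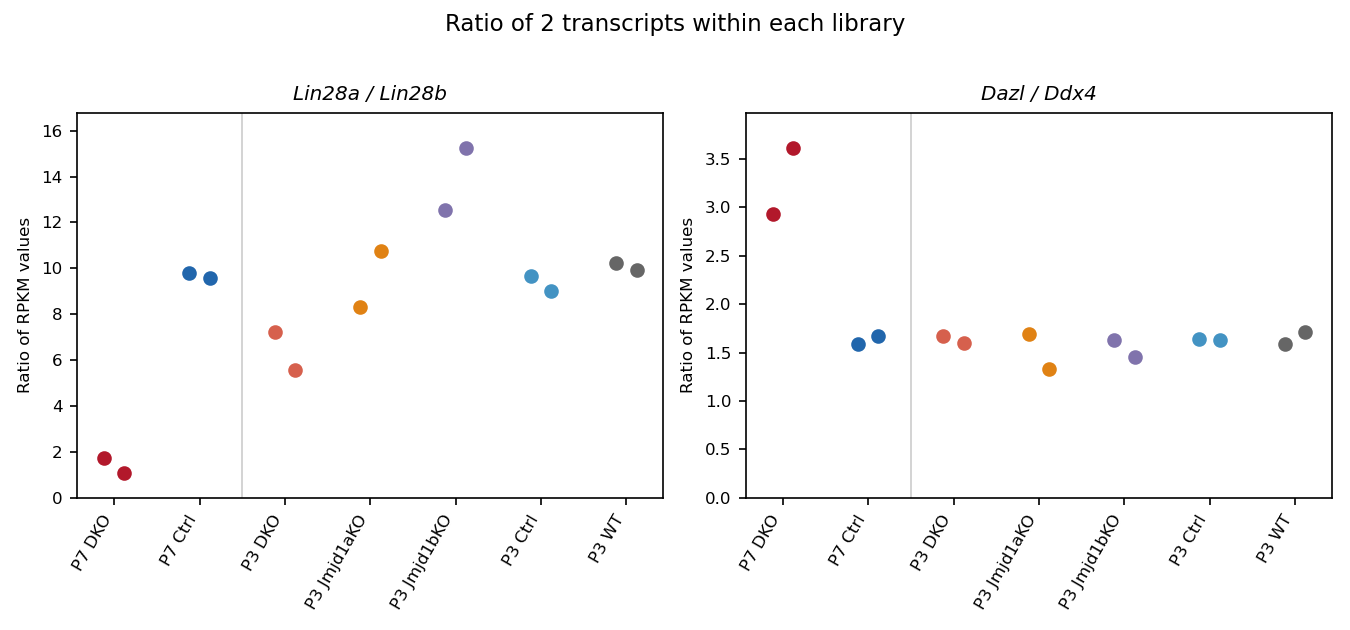
Ratio of Lin28a to Lin28b (left) and of Dazl to Ddx4 (right) within each library, both axes from 0 and without unit, each point 1 library. The P7 DKO libraries have the lowest Lin28a/Lin28b ratios, 1.74 and 1.06, and the highest Dazl/Ddx4 ratios, 2.93 and 3.62.

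The NANOS genes moved in different ways. Nanos2, the stem cell factor on chromosome 7 (18987400 to 18988962, plus strand), had 1.07 and 0.438 RPKM in P7 DKO, against 12.1 and 10.6 RPKM in P7 Ctrl. These values correspond to an estimated 36 and 14 fragments in P7 DKO and 392 and 398 fragments in P7 Ctrl. The groups did not overlap, and the transcript was close to the limit of the filter in P7 DKO. Its log2 change was -2.84 ± 0.45 (adjusted p = 0.00134). An antisense gene is annotated over 766 bases of Nanos2, so the strand question holds here too. Nanos3, on chromosome 8 (84173731 to 84185217, minus strand), had 15.1 and 13.7 RPKM in P7 DKO, against 27.9 and 28.2 RPKM in P7 Ctrl, a change of -0.91 ± 0.22 (adjusted p = 0.00988). The Nanos3 call was lost, with nearly the same change, without P7 Ctrl replicate 1 (adjusted p = 0.0553), P7 Ctrl replicate 2 (adjusted p = 0.0568) or P7 DKO replicate 2 (adjusted p = 0.0583). Nanos1, on chromosome 19 (60755987 to 60759914, plus strand), had 13.4 and 13.2 RPKM in P7 DKO, against 12.1 and 11.6 RPKM in P7 Ctrl. Its change of 0.16 ± 0.16 did not pass (adjusted p = 0.509, 95% interval -0.21 to 0.52).

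Dnd1, the gene of the NANOS2 cofactor on chromosome 18 (36763671 to 36766214, minus strand), had 82.4 and 99.7 RPKM in P7 DKO, against 89.4 and 93.2 RPKM in P7 Ctrl. The P7 Ctrl libraries lay between the P7 DKO libraries, and the change was -0.01 ± 0.11 (95% interval -0.25 to 0.23, adjusted p = 0.971). Dnd1 shares 140 bases with Wdr55 on the other strand, and Elavl2 shares 561 bases with Gm12653, so the strand question holds for both. Elavl2, on chromosome 4 (91250763 to 91400785, minus strand), had 21.3 and 20.0 RPKM in P7 DKO, against 30.0 and 34.5 RPKM in P7 Ctrl, without overlap. Its change was -0.62 ± 0.15 (adjusted p = 0.0131), and the call was lost without P7 Ctrl replicate 2 (adjusted p = 0.102) or P7 DKO replicate 2 (adjusted p = 0.0674).

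Dazl, on chromosome 17 (50279395 to 50293636, minus strand), was the 1 gene of the 10 that passed as higher. Ythdc2, Lin28b and Nanos1 also had both P7 DKO libraries above both P7 Ctrl libraries, but did not pass. How many of all genes did so was not counted. Dazl had 582 and 613 RPKM in P7 DKO, against 382 and 396 RPKM in P7 Ctrl. The P7 DKO values were also the highest of all 14 libraries. The change was 0.62 ± 0.12 (adjusted p = 0.00449), and it shrank to 0.26 (adjusted p = 0.218) when the libraries were forced to 1 common distribution of values by quantile normalization. Ddx4, on chromosome 13 (112598333 to 112652475, minus strand), had 199 and 169 RPKM in P7 DKO, against 239.8 and 238 RPKM in P7 Ctrl, a change of -0.38 ± 0.10 (adjusted p = 0.0151). The Ddx4 call was lost without P7 Ctrl replicate 1 (adjusted p = 0.0855), P7 Ctrl replicate 2 (adjusted p = 0.0754) or P7 DKO replicate 2 (change -0.26, adjusted p = 0.1005). The Dazl level was 2.93 and 3.62 times that of Ddx4 in P7 DKO and 1.59 and 1.67 times in P7 Ctrl, and 1.33 to 1.71 times in the 10 P3 libraries. Ythdc2, the meiotic RNA helicase gene on chromosome 18 (44827746 to 44889724, plus strand), had 6.90 and 6.48 RPKM in P7 DKO, against 4.49 and 4.52 RPKM in P7 Ctrl. The groups did not overlap, and the change of 0.48 ± 0.17 fell just short of the threshold (adjusted p = 0.0529). It passed when P3 Jmjd1aKO replicate 2 and P3 Jmjd1bKO replicate 2, the libraries high in Sertoli transcripts, were left out (adjusted p = 0.0146).

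Somatic transcripts also differed at day 7. The sum of 7 peritubular and stromal markers was 5.81 to 6.65 RPKM in P7 DKO, against 18.8 to 18.9 RPKM in P7 Ctrl, and that of 4 endothelial markers was 1.45 to 2.27 RPKM in P7 DKO, against 9.06 to 9.10 RPKM in P7 Ctrl. The Sertoli sum was 107 to 207 RPKM in P7 DKO and 144 to 161 RPKM in P7 Ctrl, with overlap. The germ cell sum, 1345 to 1347 RPKM in P7 DKO and 1334 to 1345 RPKM in P7 Ctrl, includes Dazl and Ddx4. Without them the sum of the other 5 germ cell markers was 564.2 to 564.3 RPKM in P7 DKO, against 700.4 to 723 RPKM in P7 Ctrl. Of the 7 markers 5 were lower in P7 DKO (Ddx4, Sall4, Zbtb16, Tdrd1 and Piwil2), Dazl was higher and Mael did not pass. The part of the somatic transcripts in the results was not tested.

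**Figure D3:**
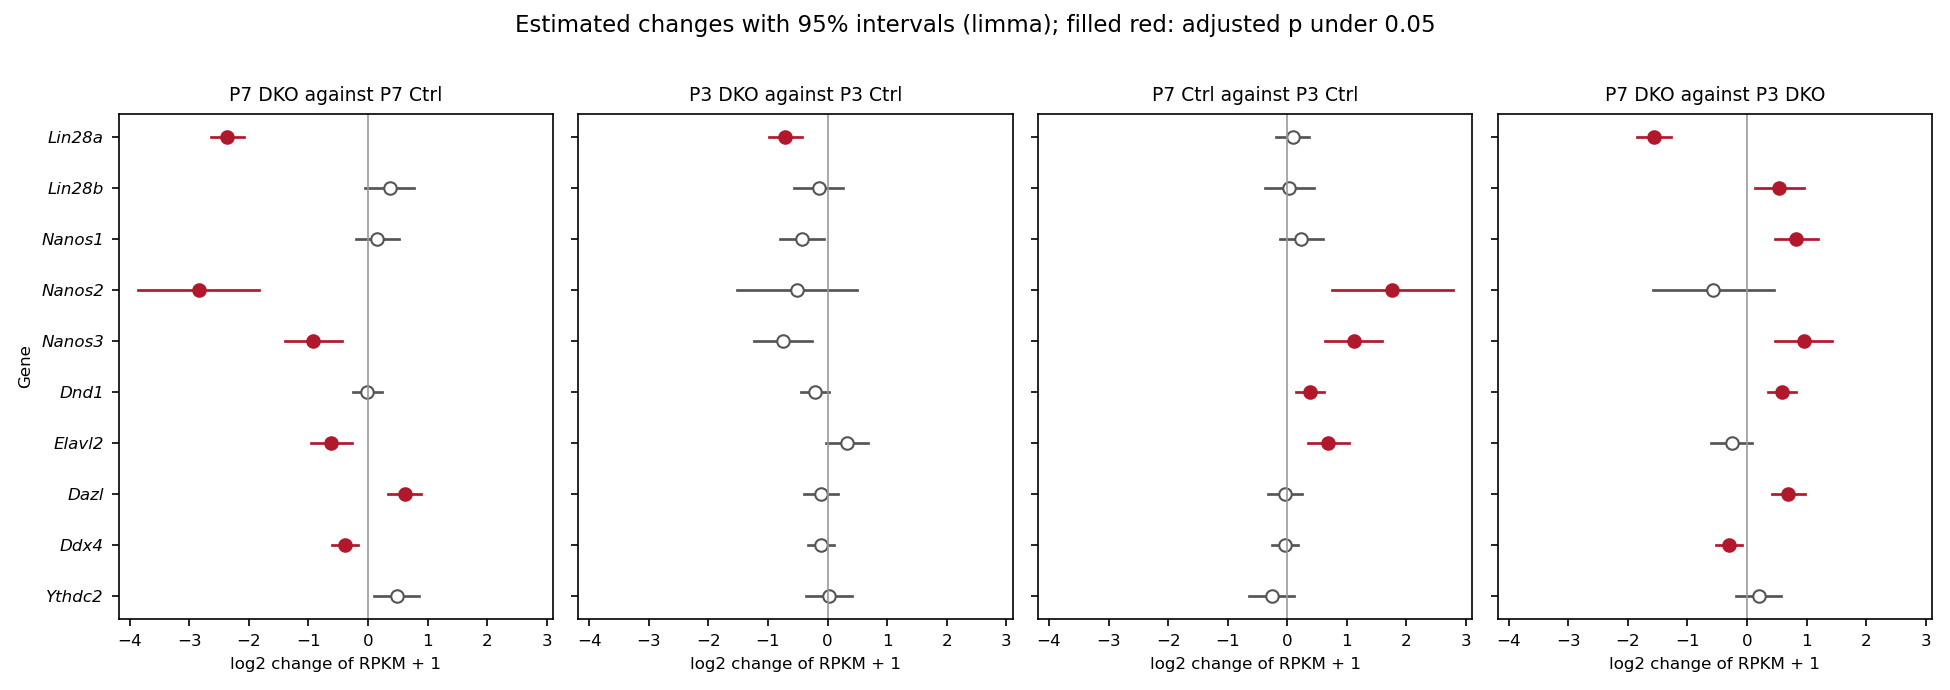
Log2 change of RPKM + 1 (horizontal axis) with its 95% interval for the 10 genes in 4 comparisons, filled red where the adjusted p was under 0.05. In P7 DKO against P7 Ctrl, Lin28a (-2.36) and Nanos2 (-2.84) lie farthest from 0, and in P3 DKO against P3 Ctrl only Lin28a (-0.71) is filled.

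At day 3 Lin28a was the 1 gene of the 10 that passed. It had 52.3 and 41.9 RPKM in P3 DKO, against 73.4 and 81.2 RPKM in P3 Ctrl, without overlap. The change was -0.71 ± 0.12 (limma, adjusted p = 0.0236), so 1 of 10 genes passed, beside 4.47% of all genes (2.18% higher, 2.29% lower). Over all genes this was 661 calls, 322 higher and 339 lower, which became 395 higher and 222 lower with median-ratio scaling, and fewer were made with 1 library left out: 117 or 21 when replicate 1 or replicate 2 of P3 DKO was dropped, and 150 or 10 when replicate 1 or replicate 2 of P3 Ctrl was. The call was lost without P3 Ctrl replicate 1 (adjusted p = 0.0536), P3 Ctrl replicate 2 (adjusted p = 0.168) or P3 DKO replicate 2 (adjusted p = 0.170), and when only these 4 libraries were fitted (adjusted p = 0.0843). Nanos3 had 6.41 and 7.59 RPKM in P3 DKO, against 10.9 and 14.2 RPKM in P3 Ctrl. These did not overlap, but the change of -0.75 ± 0.22 did not pass (adjusted p = 0.0736). Nanos1 had 7.83 and 6.35 RPKM in P3 DKO, against 10.1 and 9.59 RPKM in P3 Ctrl (change -0.43 ± 0.16, adjusted p = 0.142). Nanos3 and Nanos1 both passed without the libraries high in Sertoli transcripts (adjusted p = 0.0167 and 0.0472), which are in neither group and enter only through the shared estimate of the spread.

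The other 7 genes did not pass at day 3 either. Nanos2 had 0.847 and 2.53 RPKM in P3 DKO, against 1.69 and 3.93 RPKM in P3 Ctrl, with a wider spread within each group than between their means (change -0.51 ± 0.45, adjusted p = 0.527). Elavl2 had 22.8 and 27.0 RPKM in P3 DKO, against 16.4 and 23.4 RPKM in P3 Ctrl (change 0.33 ± 0.15, adjusted p = 0.229). Dazl had 393 and 347 RPKM in P3 DKO, against 389.9 and 409 RPKM in P3 Ctrl (change -0.11, adjusted p = 0.630). Ddx4 had 235 and 217 RPKM in P3 DKO, against 238 and 251 RPKM in P3 Ctrl (change -0.12, adjusted p = 0.507). Dnd1, Lin28b and Ythdc2 had changes of -0.21, -0.15 and 0.02, with adjusted p of 0.253, 0.679 and 0.959. The stromal sum was 18.6 to 19.0 RPKM in P3 DKO and 10.7 to 12.3 RPKM in P3 Ctrl, and the Sertoli sum 61.2 to 66.0 RPKM in P3 DKO and 39.4 to 49.1 RPKM in P3 Ctrl. Their part in the results was not tested.

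The change with joint loss differed between the ages for 4 of the 10 genes by an interaction term, 1 higher and 3 lower at P7, beside 22.9% of all genes (12.2% higher, 10.7% lower). These are 1800 higher and 1583 lower genes, which became 1388 higher and 1858 lower with median-ratio scaling. Of the 10 genes, 1 passed without P3 DKO replicate 2 or P7 Ctrl replicate 2, 2 without P7 Ctrl replicate 1, and 3 or 4 without any 1 of the other libraries. Lin28a was lower in both DKO groups and fell further at P7, by a difference of -1.65 ± 0.18 (adjusted p = 0.000707). Nanos2 differed by -2.33 ± 0.64 (adjusted p = 0.0282), Elavl2 by -0.94 ± 0.22 (adjusted p = 0.0144) and Dazl by 0.73 ± 0.18 (adjusted p = 0.0168). With quantile normalization the Dazl difference was 0.03 (adjusted p = 0.934) and the Nanos2 difference -1.71 (adjusted p = 0.119), and neither passed. For Elavl2 the estimates had opposite signs, -0.62 at P7 and 0.33 at P3. For Nanos3 the difference was -0.16 ± 0.31 (adjusted p = 0.742, 95% interval -0.85 to 0.52).

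The ages also differed in control cells. Nanos2, Nanos3, Elavl2 and Dnd1 were higher in P7 Ctrl than in P3 Ctrl, so 4 of 10 genes passed, all higher, beside 23.3% of all genes (9.94% higher, 13.4% lower). Nanos2 had 12.1 and 10.6 RPKM in P7 Ctrl, against 1.69 and 3.93 RPKM in P3 Ctrl (change 1.76 ± 0.45, adjusted p = 0.0237). Nanos3 had 27.9 and 28.2 RPKM in P7 Ctrl, against 10.9 and 14.2 RPKM in P3 Ctrl (change 1.11 ± 0.22, adjusted p = 0.00881). The groups did not overlap for either gene. Elavl2 had 30.0 and 34.5 RPKM in P7 Ctrl, against 16.4 and 23.4 RPKM in P3 Ctrl (change 0.69 ± 0.15, adjusted p = 0.0143). Dnd1 had 89.4 and 93.2 RPKM in P7 Ctrl, against 66.2 and 74.0 RPKM in P3 Ctrl (change 0.38 ± 0.11, adjusted p = 0.0315). Somatic markers differed with age as well. The Sertoli sum was 144 to 161 RPKM in P7 Ctrl, against 39.4 to 49.1 RPKM in P3 Ctrl, the stromal sum 18.8 to 18.9 RPKM in P7 Ctrl, against 10.7 to 12.3 RPKM in P3 Ctrl, and the endothelial sum 9.06 to 9.10 RPKM in P7 Ctrl, against 16.1 to 26.8 RPKM in P3 Ctrl. None of these 3 sums overlapped between the groups, and their part in the results was not tested. Each of the 4 calls was lost without P3 Ctrl replicate 1, where the adjusted p was 0.166 for Nanos2, 0.0738 for Nanos3, 0.0945 for Elavl2 and 0.187 for Dnd1. All 4 were also lost without P7 Ctrl replicate 1 (0.126, 0.0639, 0.0608 and 0.121) and without P7 Ctrl replicate 2 (0.1004, 0.0641, 0.110 and 0.162). Lin28a changed by 0.09 ± 0.12 (95% interval -0.19 to 0.37), Dazl by -0.04 ± 0.12 (-0.32 to 0.24) and Ddx4 by -0.03 ± 0.10 (-0.25 to 0.18), and none of them passed.

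The ages differed for more of the genes in DKO cells. Of the 10 genes, 7 passed in P7 DKO against P3 DKO, 5 higher and 2 lower, beside 58.3% of all genes (27.8% higher, 30.5% lower). These are 4111 higher and 4505 lower genes, which became 3100 higher and 5403 lower with median-ratio scaling. The Sertoli sum was 107 to 207 RPKM in P7 DKO, against 61.2 to 66.0 RPKM in P3 DKO, the stromal sum 5.81 to 6.65 RPKM in P7 DKO, against 18.6 to 19.0 RPKM in P3 DKO, and the endothelial sum 1.45 to 2.27 RPKM in P7 DKO, against 19.4 to 20.2 RPKM in P3 DKO. None of these 3 sums overlapped, and their part in the results was not tested. Lin28a had 16.8 and 13.8 RPKM in P7 DKO, against 52.3 and 41.9 RPKM in P3 DKO (change -1.56 ± 0.12, adjusted p = 3.66e-05). Nanos2 had 1.07 and 0.438 RPKM in P7 DKO, against 0.847 and 2.53 RPKM in P3 DKO, with overlap (change -0.57 ± 0.45, adjusted p = 0.305). Nanos3 was higher in P7 DKO, by 0.95 ± 0.22 (adjusted p = 0.00419), as were Nanos1 (0.83 ± 0.16, adjusted p = 0.00198) and Dnd1 (0.58 ± 0.11, adjusted p = 0.00127). Dazl was higher by 0.69 ± 0.12 (adjusted p = 0.00118), a change that was -0.04 (adjusted p = 0.853) with quantile normalization, where Dnd1 was not called either (0.24, adjusted p = 0.0643). Lin28b was higher by 0.54 ± 0.18 (adjusted p = 0.0282) and Ddx4 changed by -0.30 ± 0.10 (adjusted p = 0.0253). The Lin28b call was lost with median-ratio scaling (adjusted p = 0.105), when only the libraries compared were fitted (adjusted p = 0.0589), and without P3 DKO replicate 1 (adjusted p = 0.103), P3 DKO replicate 2 (adjusted p = 0.0829) or P7 DKO replicate 2 (adjusted p = 0.190). The Ddx4 call was lost when only the libraries compared were fitted (adjusted p = 0.0963), without P3 DKO replicate 1 (adjusted p = 0.138) and without P7 DKO replicate 2 (change -0.18, adjusted p = 0.170). The comparisons share libraries with each other and are not independent.

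Loss of 1 demethylase with 1 copy of the other left gave no call among the 10 genes. In P3 Jmjd1aKO against P3 Ctrl 0 of 10 passed in limma, beside 0.0338% of all genes, and 2 had an unadjusted p under 0.05, as did 1484 of the 14772 genes tested. The 2 members were Nanos1, with 7.88 and 5.71 RPKM in P3 Jmjd1aKO against 10.1 and 9.59 RPKM in P3 Ctrl (adjusted p = 0.383), and Dazl, with 351 and 299 RPKM in P3 Jmjd1aKO against 389.9 and 409 RPKM in P3 Ctrl (adjusted p = 0.464). In P3 Jmjd1bKO against P3 Ctrl 0 of 10 passed, beside 0.0203% of all genes, and 0 had an unadjusted p under 0.05, which 268 of all genes had. Kdm3b, the targeted gene, did not pass there either (change -0.87, limma, adjusted p = 0.965). The lack of calls therefore does not show that the genes were unchanged. Lin28a had 66.9 and 61.7 RPKM in P3 Jmjd1aKO and 90.2 and 85.0 RPKM in P3 Jmjd1bKO, against 73.4 and 81.2 RPKM in P3 Ctrl. Its change was -0.26 (95% interval -0.54 to 0.02) in P3 Jmjd1aKO and 0.18 (-0.10 to 0.46) in P3 Jmjd1bKO. Nanos2 varied widely within the groups, with 2.73 and 6.18 RPKM in P3 Jmjd1aKO and 1.32 and 3.32 RPKM in P3 Jmjd1bKO. Nanos3 had 16.7 and 18.0 RPKM in P3 Jmjd1aKO and 10.3 and 18.2 RPKM in P3 Jmjd1bKO. Replicate 2 of each of these groups is the one high in Sertoli transcripts, and its part was not tested.

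In P3 Ctrl against P3 WT 0 of 10 genes passed in limma, beside 0.704% of all genes, and 4 had an unadjusted p under 0.05, as did 26.6% of all genes (3923). Lin28a had 73.4 and 81.2 RPKM in P3 Ctrl, against 108 and 100.1 RPKM in P3 WT (change -0.42 ± 0.12, adjusted p = 0.0894). Ddx4 had 238 and 251 RPKM in P3 Ctrl, against 301.4 and 307 RPKM in P3 WT (change -0.31 ± 0.10, adjusted p = 0.0987). Dazl had 389.9 and 409 RPKM in P3 Ctrl, against 479 and 525 RPKM in P3 WT (change -0.33 ± 0.12, adjusted p = 0.139). For each of these 3 genes both P3 Ctrl libraries lay below both P3 WT libraries. The same held for Dnd1, Nanos2, Nanos3, Lin28b, Elavl2 and Ythdc2, while Nanos1 overlapped. How many of all genes separate in this way was not counted, so the separation is not a result about these genes. The median change of the 10 genes was -0.30, where that of all genes was 0.02. The Sertoli sum was 39.4 to 49.1 RPKM in P3 Ctrl, against 113 to 147 RPKM in P3 WT, and the endothelial sum 16.1 to 26.8 RPKM in P3 Ctrl, against 7.98 to 10.3 RPKM in P3 WT. These sums did not overlap either, and their part in the results was not tested. Elavl2 had 16.4 and 23.4 RPKM in P3 Ctrl, against 27.9 and 28.1 RPKM in P3 WT (change -0.49 ± 0.15, adjusted p = 0.10004), and it passed without P3 Ctrl replicate 2 (-0.74, adjusted p = 0.0465). The Cre and the loss of 1 copy of each gene cannot be told apart in this comparison. Depth differed too, with 44.1 M to 48.6 M fragments in P3 Ctrl and 15.0 M to 16.4 M in P3 WT, and its part was not tested.

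The partners and targets of these proteins were examined by lists, whose counts in P7 DKO are to be read against the 33.5% of all genes that passed there. The lists, like the members, were chosen with earlier results of these data known. Over the 6 lists 39 of 86 genes passed, and by list the share was 14.3% for CCR4-NOT, 45.5% for other RNA-binding and translation regulators and 87.5% for the target transcripts. Of 22 other RNA-binding and translation regulators tested, 7 were higher and 3 lower in P7 DKO, with a median change of 0.14, where the median of all genes was 0.02. Gm1564, the Meioc gene whose protein works with YTHDC2, averaged 21.9 ± 4.195 RPKM in P7 DKO and 3.66 ± 0.28 RPKM in P7 Ctrl (SD, n = 2 each, change 2.29, adjusted p = 7.83e-05). Rbm46, which encodes a germ cell RNA-binding protein needed for meiosis, averaged 40.4 ± 5.66 RPKM in P7 DKO and 19.9 ± 0.0984 RPKM in P7 Ctrl (change 0.98, adjusted p = 0.00131). Cpeb1, which encodes a regulator of poly(A) tail length, averaged 39.1 ± 0.0224 RPKM in P7 DKO and 19.6 ± 0.307 RPKM in P7 Ctrl (change 0.96, adjusted p = 0.00130). Celf1 averaged 48.4 ± 2.56 RPKM in P7 DKO and 31.3 ± 0.436 RPKM in P7 Ctrl (change 0.61, adjusted p = 0.00334).

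The CCR4-NOT list of 14 genes holds Tob1, Tob2 and Btg1 beside the genes of subunits. Of the 14, 1 was higher and 1 lower in P7 DKO. The catalytic subunit gene Cnot6l averaged 9.48 ± 1.82 RPKM in P7 DKO and 18.2 ± 0.357 RPKM in P7 Ctrl (change -0.88, adjusted p = 0.00124), while the higher gene, Cnot8 (0.42, adjusted p = 0.0447), was not called with median-ratio scaling or quantile normalization. Of 15 genes of the LIN28 and let-7 axis, 4 were higher and 5 lower. Igf2bp3 averaged 37.9 ± 9.34 RPKM in P7 DKO and 15.4 ± 0.0174 RPKM in P7 Ctrl (change 1.22, adjusted p = 0.000387). Mycn averaged 58.1 ± 12.6 RPKM in P7 DKO and 22.3 ± 0.790 RPKM in P7 Ctrl (change 1.33, adjusted p = 0.00202), and Igf2bp2 28.1 ± 9.58 RPKM in P7 DKO and 11.9 ± 0.243 RPKM in P7 Ctrl (change 1.14, adjusted p = 0.00208). Arid3a averaged 6.63 ± 0.0556 RPKM in P7 DKO and 15.7 ± 0.0324 RPKM in P7 Ctrl (change -1.13, adjusted p = 0.000943). Hmga2 was also higher (1.29, adjusted p = 0.0225), and Igf2bp1 (-0.69, adjusted p = 0.00988), Trim71 (-0.87, adjusted p = 0.0295), Drosha (-0.46, adjusted p = 0.0407) and Dicer1 (-0.43, adjusted p = 0.00691) were lower.

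Of the 15 genes on the m6A list, which also holds the exoribonuclease gene Xrn1, 2 were higher and 3 lower in P7 DKO. This was 33.3% of the list and thus at the share of all genes. The reader gene Ythdf2 averaged 30.2 ± 0.0274 RPKM in P7 DKO and 21.8 ± 0.523 RPKM in P7 Ctrl (change 0.45, adjusted p = 0.0171). The demethylase gene Fto averaged 28.7 ± 2.102 RPKM in P7 DKO and 40.7 ± 1.18 RPKM in P7 Ctrl (change -0.49, adjusted p = 0.00495). Xrn1, whose protein is a 5′ to 3′ exoribonuclease, averaged 8.64 ± 1.83 RPKM in P7 DKO and 14.3 ± 0.822 RPKM in P7 Ctrl (change -0.68, adjusted p = 0.0107). 1110037F02Rik, the Virma gene of the methyltransferase complex, averaged 21.1 ± 2.85 RPKM in P7 DKO and 28.6 ± 0.0628 RPKM in P7 Ctrl (change -0.43, adjusted p = 0.0326). With median-ratio scaling or quantile normalization 1 m6A gene was higher.

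A list of 8 transcripts taken as targets of NANOS2 or DAZL in the mouse (Stra8, Sycp3, Taf7l, Sohlh2, Sycp1, Tex19.1, Tex14 and Kit) had the largest median change of the 6 lists, 1.26, with 6 higher and 1 lower in P7 DKO. Sohlh2, a transcription factor gene of differentiating spermatogonia, averaged 233 ± 9.98 RPKM in P7 DKO and 51.6 ± 1.11 RPKM in P7 Ctrl (change 2.15, adjusted p = 2.46e-06). Stra8, the gene induced by retinoic acid, averaged 224 ± 73.5 RPKM in P7 DKO and 58.5 ± 3.57 RPKM in P7 Ctrl (change 1.88, adjusted p = 0.000910). Taf7l averaged 572 ± 40.9 RPKM in P7 DKO and 242 ± 4.10 RPKM in P7 Ctrl (change 1.24, adjusted p = 5.36e-05). Sycp1, a synaptonemal complex gene, averaged 126 ± 19.0 RPKM in P7 DKO and 49.0 ± 1.52 RPKM in P7 Ctrl (change 1.34, adjusted p = 0.00101). Sycp3 (1.28, adjusted p = 0.00354) and Kit (0.71, adjusted p = 0.0205) were also higher, Tex14 was lower (-0.28, adjusted p = 0.0254), and Tex19.1 changed by 0.02 (adjusted p = 0.946). This list, like the other lists and the members, was drawn up with earlier results of these libraries known. None of them is independent evidence of its direction.

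Of 12 other germ cell identity genes, 0 were higher and 6 lower in P7 DKO, with a median change of -0.35. Sall4 averaged 38.5 ± 0.99 RPKM in P7 DKO and 91.7 ± 7.18 RPKM in P7 Ctrl (change -1.23, adjusted p = 1.64e-05). Zbtb16, the gene of PLZF, averaged 22.7 ± 13.2 RPKM in P7 DKO and 82.7 ± 0.94 RPKM in P7 Ctrl (change -1.94, adjusted p = 0.00112). Gfra1, the GDNF receptor gene of stem spermatogonia, averaged 25.2 ± 15.9 RPKM in P7 DKO and 125 ± 0.32 RPKM in P7 Ctrl (change -2.41, adjusted p = 0.00138). Tdrd1 averaged 35.0 ± 0.744 RPKM in P7 DKO and 59.9 ± 0.272 RPKM in P7 Ctrl (change -0.76, adjusted p = 0.00201). Tdrd9 and Piwil2 were lower as well (-0.41 and -0.50), and the other 6 genes did not pass. When 1 of the 4 libraries was left out, 4 to 5 identity genes were lower, 5 to 6 target transcripts higher, and 4 to 6 of the other RNA-binding and translation regulators higher and 1 to 4 lower. In the LIN28 and let-7 axis 3 to 4 were then higher and 1 to 5 lower, in the m6A machinery 0 to 1 higher and 1 to 3 lower, and among CCR4-NOT genes 0 to 1 higher and 1 to 2 lower.

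**Figure D4:**
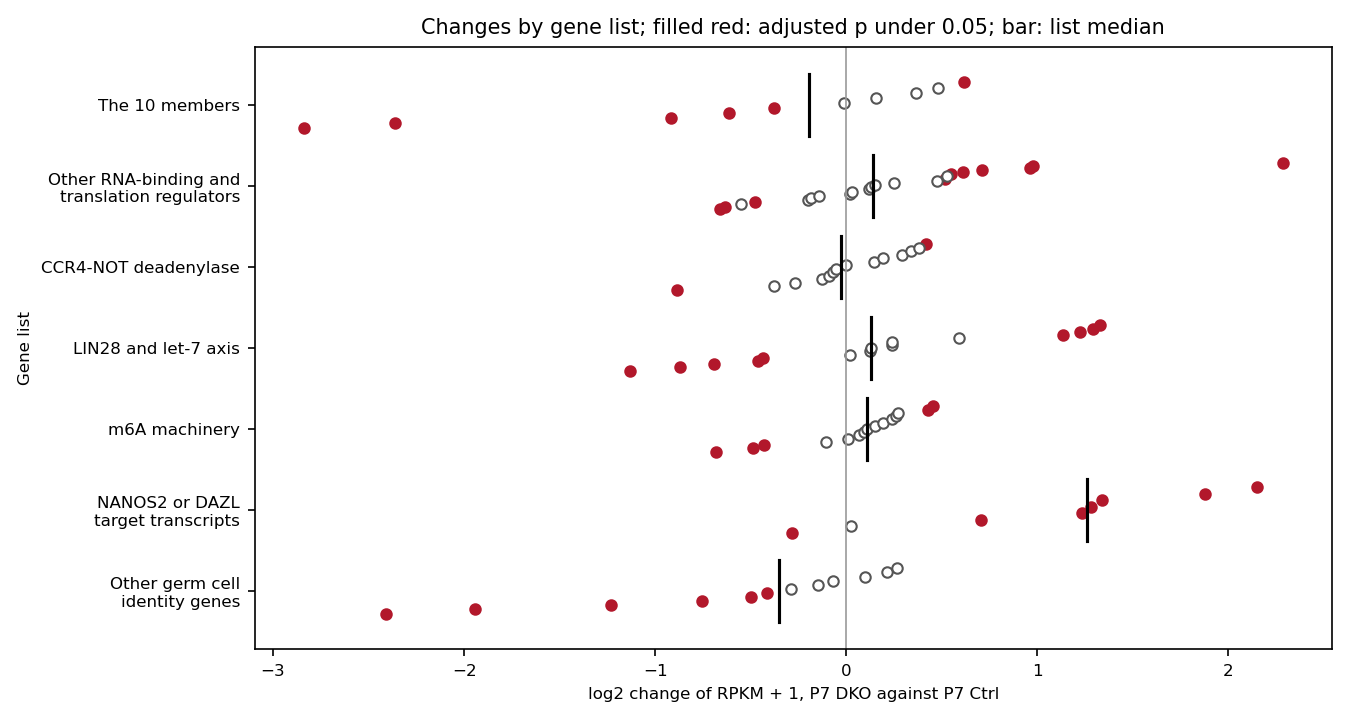
Log2 change of RPKM + 1 in P7 DKO against P7 Ctrl (horizontal axis) of each tested gene, by list; each point is 1 gene, filled red where the adjusted p was under 0.05, and the bar is the list's median. The target list has its median at 1.26 and the identity list at -0.35.

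At day 3, 5 of the 86 list genes tested passed (5.81%), a share close to the 4.47% of all genes. In P3 DKO against P3 Ctrl 1 of 22 other RNA-binding and translation regulators was higher and 1 lower, 0 of 14 CCR4-NOT genes and 0 of 15 m6A genes passed, and 1 of 15 genes of the LIN28 and let-7 axis was lower. Elavl3 averaged 1.51 ± 0.297 RPKM in P3 DKO and 0.559 ± 0.113 RPKM in P3 Ctrl (change 0.68, adjusted p = 0.0426), and Rbpms 38.6 ± 3.58 RPKM in P3 DKO and 58.9 ± 0.682 RPKM in P3 Ctrl (change -0.60, adjusted p = 0.0276). The lower gene of the LIN28 and let-7 axis was Igf2bp1, with 29.5 ± 1.07 RPKM in P3 DKO and 48.5 ± 3.57 RPKM in P3 Ctrl (change -0.70, adjusted p = 0.0449). Of the 8 target transcripts, 1 was lower, Sohlh2, with 46.0 ± 3.21 RPKM in P3 DKO and 67.5 ± 2.99 RPKM in P3 Ctrl (change -0.54, adjusted p = 0.0236), opposite in sign to its change at day 7. Dppa3, a gene of primordial germ cells, was the 1 of 12 identity genes that was higher, with 5.35 ± 1.05 RPKM in P3 DKO and 1.36 ± 0.43 RPKM in P3 Ctrl (change 1.43, adjusted p = 0.0372). Among the CCR4-NOT genes Cnot1 averaged 68.3 ± 3.88 RPKM in P3 DKO and 73.9 ± 14.7 RPKM in P3 Ctrl, and Rqcd1 69.2 ± 8.01 RPKM in P3 DKO and 81.0 ± 2.06 RPKM in P3 Ctrl. Among the m6A genes Ythdf1 averaged 92.1 ± 9.08 RPKM in P3 DKO and 92.3 ± 2.50 RPKM in P3 Ctrl, and Alkbh5 52.5 ± 0.468 RPKM in P3 DKO and 52.8 ± 1.4985 RPKM in P3 Ctrl. All calls of the 6 lists at day 3 were lost with quantile normalization and without any 1 of the 4 libraries compared.

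The genes with the profiles most like those of the 3 most variable members were found by the root mean square distance between log2(RPKM + 1) values over the 14 libraries, after each gene's own mean was taken away. For Lin28a, whose own values spread by 0.85 on this measure, the nearest of 13416 candidate genes were Crygs (distance 0.21), Sdc4 (0.23) and Arhgef15 (0.27). Sdc4 averaged 56.6 RPKM in P7 DKO and 259 RPKM in P7 Ctrl, and 165 RPKM in P3 DKO and 280.1 RPKM in P3 Ctrl. For Nanos2, with a spread of 0.95, the nearest were Jdp2 (0.35), Sall1 (0.40) and Cdh3 (0.44). Sall1 averaged 3.22 RPKM in P7 DKO and 22.5 RPKM in P7 Ctrl, and 7.19 RPKM in P3 DKO and 9.65 RPKM in P3 Ctrl. For Nanos3, with a spread of 0.54, the nearest were Irf2bp2 (0.25), Proser3 (0.25) and H2afy2 (0.26). The points share libraries, and the distances are a description.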

How the data were processed

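The authors deposited RPKM values for 24340 gene symbols in each of 14 libraries, with no counts. Extraction used the AllPrep DNA/RNA Micro kit and library preparation the TruSeq Stranded mRNA LT kit, per the labels' protocols. TopHat2 2.1.1 and Cufflinks 2.1.1 are named with mm10 (per the submitters' processing notes). Their roles, the annotation and the use of strand in counting are not given in the sources used here. Here the values were moved to the log2(RPKM + 1) scale and not rescaled. A filter of 1 RPKM in 2 libraries kept 14772 genes and removed 9568. A linear model with a mean for each group was fitted by limma 3.58.1 under R 4.3.3 with an intensity trend in its empirical Bayes step, using every library, which left 7 residual degrees of freedom. All p-values are two-sided, with Benjamini-Hochberg adjustment over all genes tested in each of 8 comparisons and a threshold of 0.05. The fit was tested on simulated data for P7 DKO against P7 Ctrl. It recovered 57 of 100 genes given a log2 change of 1 and 90 of 100 given a change of 2, with 13 false calls. Only 100 of 14772 genes were given each change, where 4954 genes were called in the data. The simulated rates therefore need not hold for the data. Smaller changes can be missed.

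Depth was estimated from the steps between RPKM values of 3508 genes with 1 annotated transcript of 800 to 8000 nucleotides. Of the low genes used in a library, 83.0 to 88.3% came within 0.2 of whole fragments (40% by chance). The depth was chosen to bring these same genes close to whole fragments, so that share is no separate check of it. Of near-equal solutions at fractions of a depth, the smaller was kept. GENCODE M21 (GRCm38) gave the coordinates and matched 95.8% of symbols. The alternatives tried were a pseudocount of 0.1, no filter, median-ratio scaling, quantile normalization, only the libraries compared, a replicate block, leaving out both libraries of high Sertoli transcripts, and leaving out each library. All 10 members, Kdm3a and Kdm3b, up to 4 called genes of each list by lowest adjusted p, and the 3 nearest profiles of the 3 most variable members were named, with 2 genes of highest mean for a list without calls; further list genes were named after their values were seen. The members and lists were chosen with earlier results of these data known.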

Additional observations from a re-analysis of the deposited data

Results flagged for a closer look

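The change with joint loss of the demethylases differed between the ages, by the interaction term of the limma model, for 4 of the 10 genes. For Dazl the P7 change less the P3 change was 0.73 on the log2(RPKM + 1) scale (adjusted p = 0.0168, 0.03 and adjusted p = 0.934 with quantile normalization). The Dazl value also lost its call without P3 Ctrl replicate 2 (adjusted p = 0.0548), P3 DKO replicate 2 (adjusted p = 0.0680), P7 Ctrl replicate 1 (adjusted p = 0.0657) or P7 Ctrl replicate 2 (adjusted p = 0.0534). For Nanos2 the difference was -2.33 (adjusted p = 0.0282, and -1.71 with adjusted p = 0.119 under quantile normalization). Its call was lost without P3 Ctrl replicate 1 (adjusted p = 0.0841), P3 DKO replicate 2 (adjusted p = 0.106), P7 Ctrl replicate 1 (adjusted p = 0.0901), P7 Ctrl replicate 2 (adjusted p = 0.0723) or P7 DKO replicate 2 (adjusted p = 0.0904). For Lin28a it was -1.65 (adjusted p = 0.000707), called in all 15 alternatives. For Elavl2 it was -0.94 (adjusted p = 0.0144), and the call was lost without P3 DKO replicate 2 (adjusted p = 0.0604) or P7 Ctrl replicate 2 (adjusted p = 0.0643).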

How the results depend on the processing

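Lin28a and Nanos2 in P7 DKO against P7 Ctrl passed the threshold under all 11 alternatives, with changes of -2.49 to -2.23 for Lin28a and -3.85 to -2.50 for Nanos2. Dazl in P7 DKO against P3 DKO was the 1 reversed result, -0.036 with quantile normalization, and the cause was not tested. Of the 10 genes, 0 passed in P3 DKO when only the libraries compared were fitted, 2 with the replicate block and 3 without both libraries of high Sertoli transcripts, where the main count was 1. Leaving out 1 library at a time gave 0 to 1 genes in P3 DKO, 3 to 6 in P7 DKO against P7 Ctrl, 0 to 4 in P7 Ctrl against P3 Ctrl, 0 to 1 in P3 Ctrl against P3 WT and 1 to 4 for the difference between ages and 5 to 7 in P7 DKO against P3 DKO. A library left alone in its group was assumed to vary like the other groups.

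Over all genes, the count in P3 DKO against P3 Ctrl was 661 (322 higher, 339 lower). It was 365 with a pseudocount of 0.1 (125 higher, 240 lower), 617 with median-ratio scaling (395 higher, 222 lower), 1541 without the filter (1046 higher, 495 lower), 375 with quantile normalization, 20 when only the libraries compared were fitted, 1140 with the replicate block, 1920 without the libraries high in Sertoli transcripts and 10 to 150 with 1 library left out. In P3 Ctrl against P3 WT the count was 104, with 183, 57, 69, 776 and 2206 under the pseudocount, quantile, only-compared, block and Sertoli alternatives and 4 to 231 with 1 library left out. In P3 Jmjd1aKO it was 5 (3 to 12 over the alternatives, 1484 genes at an unadjusted p under 0.05) and in P3 Jmjd1bKO 3 (3 to 15, 268 unadjusted). Leaving out 1 library gave 2619 to 4427 of 4954 genes in P7 DKO against P7 Ctrl, 486 to 2506 of 3441 in P7 Ctrl against P3 Ctrl (5208 without the libraries high in Sertoli transcripts) and 1635 to 3316 of 3383 for the difference.

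Replicate numbers were not taken to pair the libraries, since over 21 pairs of groups the correlation of same-numbered deviations was -0.13 to 0.58 and only 7 were over 0.1. P3 Jmjd1aKO and P3 Jmjd1bKO, whose replicates 2 are high in Sertoli transcripts, gave the 0.58. With the replicate block Nanos3 in P3 DKO (adjusted p = 0.0478), Ythdc2 in P7 DKO (adjusted p = 0.0454) and the Nanos1 difference (adjusted p = 0.0456) were gained and no member was lost. Median-ratio scaling moved the median of all genes to -0.19 in P7 DKO against P3 DKO and to -0.12 for the difference, where it was -0.03 for both in the unscaled values. Elavl2 in P7 DKO against P3 DKO passed with median-ratio scaling (-0.43, adjusted p = 0.0308) and quantile normalization (-0.41, adjusted p = 0.0485), and the Ddx4 difference with quantile normalization (-0.79, adjusted p = 0.00892). The low level of Nanos2, an estimated 14 to 36 fragments in P7 DKO, limits the precision of its change.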

Other observations

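Between the ages in control cells 23.3% of all genes passed, and the lists are to be read against that share: 18.2% of the other RNA-binding and translation regulators, 26.7% of the LIN28 and let-7 genes, 33.3% of the identity and m6A genes, 35.7% of the CCR4-NOT genes and 62.5% of the 8 target transcripts. Of the 14 genes on the CCR4-NOT list 5 were higher, Tob1 and Btg1 among them, and 0 lower in P7 Ctrl against P3 Ctrl. With median-ratio scaling and quantile normalization 3 and 4 were higher. The median change was 0.36, where the median of all genes was -0.01. Cnot3 averaged 64.7 ± 3.24 RPKM in P7 Ctrl and 40.8 ± 2.16 RPKM in P3 Ctrl (limma, adjusted p = 0.00552), Cnot6l 18.2 ± 0.357 RPKM in P7 Ctrl and 10.9 ± 1.59 RPKM in P3 Ctrl (adjusted p = 0.00976), and Tob1 22.0 ± 0.481 RPKM in P7 Ctrl and 15.3 ± 1.06 RPKM in P3 Ctrl (adjusted p = 0.0145). Of the 15 genes on the m6A list 5 were higher, Xrn1 among them, and 0 lower (4 higher under either scaling), with a median change of 0.32. Mettl14, part of the methyltransferase, averaged 35.4 ± 0.905 RPKM in P7 Ctrl and 22.6 ± 0.483 RPKM in P3 Ctrl (adjusted p = 0.00449), and the nuclear reader gene Ythdc1 46.9 ± 0.740 RPKM in P7 Ctrl and 33.5 ± 2.99 RPKM in P3 Ctrl (adjusted p = 0.0107). Of the 8 target transcripts 3 were higher and 2 lower, Kit averaging 7.68 ± 0.593 RPKM in P7 Ctrl and 27.3 ± 0.932 RPKM in P3 Ctrl (adjusted p = 0.00165). Of 22 other RNA-binding and translation regulators 3 were higher and 1 lower, of 15 LIN28 and let-7 genes 2 and 2, and of 12 identity genes 2 and 2. With 1 of the 4 libraries left out, 0 to 3 CCR4-NOT genes, 0 to 2 m6A genes and 1 target transcript were higher, and 1 target transcript was lower. The other RNA-binding and translation regulators then had 0 to 4 higher and 0 lower, the LIN28 and let-7 genes 0 higher and 0 to 1 lower, and the identity genes 0 to 2 higher and 1 to 2 lower.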
